A study of Homo sapiens with 4 samples.

Results

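The Arp2/3 complex starts new actin filaments as branches on the side of existing ones, and so builds the meshwork that pushes the cell edge forward and moves endosomes. Its 9 subunit genes in this set were taken by name from the deposited peak tables: ACTR2, ACTR3, ARPC1A, ARPC1B, ARPC2, ARPC3, ARPC4, ARPC5 and ARPC5L. They are 9 of the 20056 protein-coding genes in the RefSeq gene table, and a subunit without a row in a table counted as having no peak. Of the subunits, the ARPC1 and ARPC5 positions can each be filled by either of a pair of isoforms made by separate genes.

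N7-methylguanosine (m7G) is the methylated guanine of the mRNA cap, and it is also found at internal positions of some mRNAs. U2OS, an established human osteosarcoma cell line, was grown without treatment, and its poly(A) RNA was immunoprecipitated (IP) with an anti-m7G antibody. All 4 samples are this line in this state: 2 input libraries and 2 IP libraries. Each IP library has 1 deposited table of peaks, with a position, a fold enrichment of IP over input and a p-value that are the authors' own. An antibody to m7G can bind the cap as well as internal sites, so a peak marks enriched fragments and does not place the modified base. Whether the replicates are separate cultures is not stated in the labels, so their spread may be a technical one.

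IP replicate 1 held 4326 peaks and IP replicate 2 held 4862, with median folds of 4.27 and 3.48 and a median length of 151 nt in both. The tables carry no counts, so depth is unknown and expression of the genes was not measured. Of 8 markers of osteoblasts and mesenchyme, 4 (COL1A1, SPARC, VIM and FN1) had overlapping peaks in the replicates. COL1A2, RUNX2, ALPL and POSTN had no peak in either table. None of 9 haematopoietic markers had a peak in either table, and of 4 epithelial markers KRT18 had one. Over all protein-coding genes, 21.6% had a peak in either replicate and 10.5% had overlapping peaks in both. The lists are too short to be read as evidence of cell identity. A missing peak does not show that a transcript was absent.

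Peaks were present on 7 of the 9 subunit genes in at least 1 replicate. Replicate 1 listed 7 peaks on 5 subunits (ACTR2, ARPC1B, ARPC2, ARPC5 and ARPC5L), where 15.9% of all protein-coding genes had a peak. Replicate 2 listed 8 peaks on 6 subunits (ACTR2, ACTR3, ARPC1A, ARPC1B, ARPC2 and ARPC5), where the share of all protein-coding genes was 17.4%. Either table listed a peak for 21.6% of protein-coding genes.

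A shared peak, meaning 1 whose blocks share at least 1 bp with a peak of the other replicate on that strand, was present on ARPC2, ACTR2, ARPC1B and ARPC5. These are 4 of 9 subunits (44.4%), while 10.5% of all protein-coding genes had a shared peak. That background counts all genes, also any that U2OS cells do not express and that could hold no peak, and expression was not measured here. Among genes with a peak in either replicate the background was 48.6%, and for the subunits it was 4 of 7 (57.1%), a share near that background. The 3 remaining subunits with a peak had it in a single replicate: ACTR3 and ARPC1A in replicate 2 and ARPC5L in replicate 1. ARPC3 and ARPC4 had none. When both folds had to reach at least 2, or only the more significant 50% of each table was used, 3 subunits (33.3%) had a shared peak and ARPC5 was the one lost. The share of all protein-coding genes was then 8.85% and 6.32%.

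**Figure D1:**
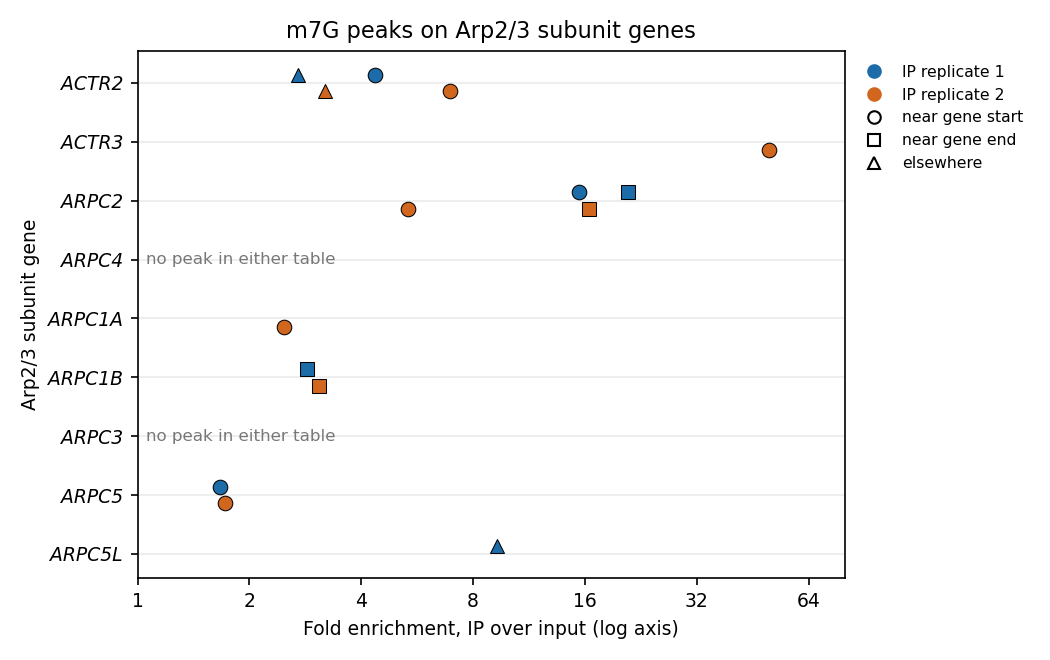
Fold enrichment of IP over input (log axis) for every peak on the 9 Arp2/3 subunit genes, blue for IP replicate 1 and orange for IP replicate 2, with circles within 200 nt of the annotated gene start, squares within 1000 nt of the gene end and triangles elsewhere. ARPC2 has 2 peaks in each replicate, its gene-end peak at 20.9 and 16.4, ACTR3 reaches 50 in replicate 2 alone, and ARPC3 and ARPC4 have no peak.

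The core of the complex is a dimer of ARPC2 and ARPC4, which binds the side of the mother filament. ARPC2 (gene ID 10109) spans chr2:218217189-218254348 on the plus strand of GRCh38 and had the strongest shared peak of the subunits. Close to its gene end the fold was 20.9 in replicate 1 and 16.4 in replicate 2, a mean log2 fold of 4.21 ± 0.25 (SD, n = 2). Both replicates were high. The difference on the log2 scale, replicate 2 minus replicate 1, was -0.35. In size it was slightly above the median of 0.30 over all 2642 shared peaks, and 43.7% of them differed by more.

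The gene-end peak of ARPC2 was the second most significant peak of the whole table in both replicates, after 1 on PTMS, which encodes the acidic nuclear protein parathymosin. Its log10 p was -2120 in replicate 1 and -1860 in replicate 2. The next peak in both tables, on HNRNPU, which encodes an RNA-binding hnRNP, had -530 and -532. The median over all peaks was -5.67 and -5.92. By fold alone the ARPC2 peak was less extreme. A higher fold was held by 169 peaks in replicate 1 and 221 in replicate 2, with a median log10 p of -7.18 and -7.90 and none below -224 and -231. The PTMS peak, the only 1 with a smaller p-value, had a lower fold, 9.69 in replicate 1 and 11.8 in replicate 2.

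**Figure D2:**
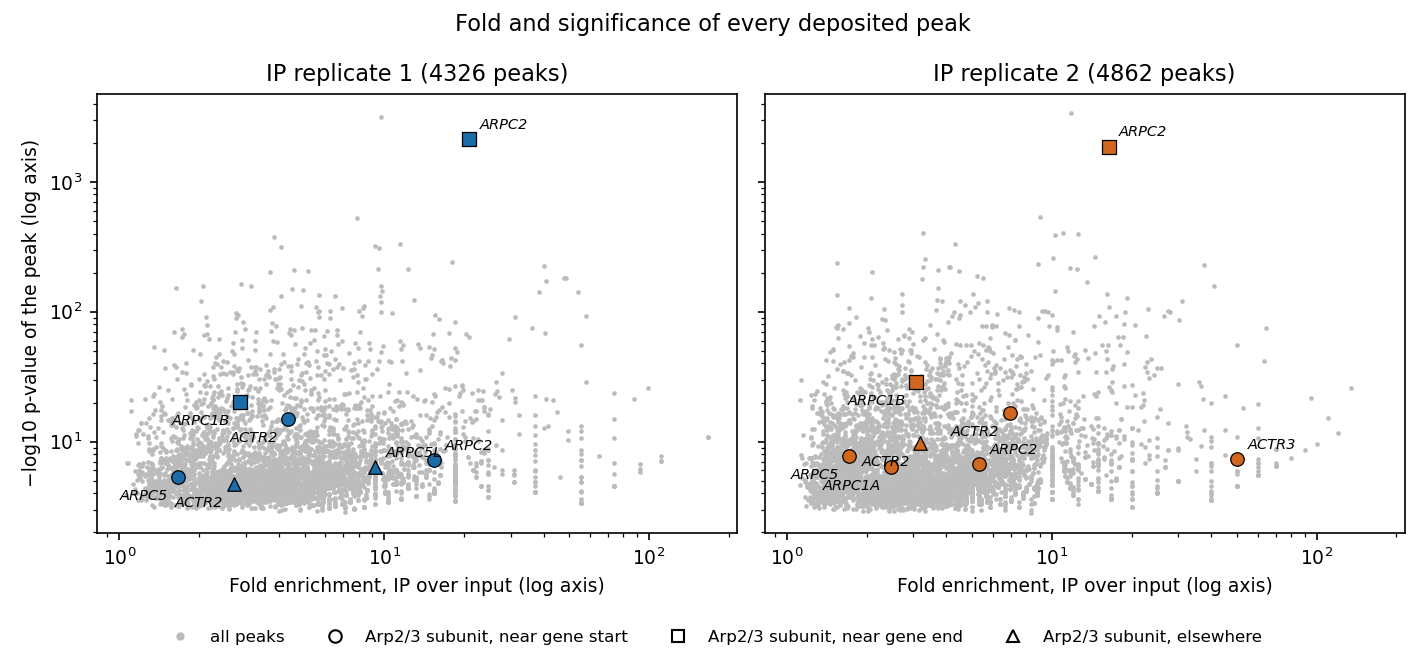
Fold enrichment (horizontal, log axis) against −log10 p-value (vertical, log axis) of every deposited peak in grey, with IP replicate 1 on the left and IP replicate 2 on the right, and peaks on Arp2/3 subunit genes as coloured symbols. The ARPC2 gene-end peak stands far above the other subunit peaks in both panels, at log10 p of -2120 and -1860.

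This peak was made of 3 blocks, and the blocks of a peak are pieces of 1 RNA separated by gaps in the genome. The blocks measured 2, 101 and 281 nt in replicate 1 and 2, 101 and 252 nt in replicate 2. They lay at chr2:218249463-218249464, chr2:218249821-218249921 and from chr2:218253891 on, to 218254171 in replicate 1 and 218254142 in replicate 2. Both gaps, of 356 and 3969 nt, had the same edges to the base in both replicates, and the peak differed only in its last base. Its last block stopped 177 and 206 nt before the annotated gene end, and the midpoint of the joined blocks lay 368 and 383 nt before it. The peaks of both replicates overlapped by 355 nt, which is the whole peak of replicate 2.

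The second shared ARPC2 peak lay at the gene start and had unequal folds, 15.4 in replicate 1 and 5.33 in replicate 2 (mean log2 fold 3.18 ± 1.08, SD, n = 2). Replicate 1 was the higher, with a difference of -1.53 on the log2 scale (replicate 2 minus replicate 1), a gap exceeded by 2.88% of all shared peaks, while 95% of them differed by less than 1.28. The log10 p of -7.19 and -6.73 was ordinary for these tables. The peak covered chr2:218217094-218217182 in replicate 1 and chr2:218217123-218217212 in replicate 2, with 60 nt in common. It began 95 and 66 nt before the annotated gene start. In replicate 1 it ended 7 nt before that start, so it lay outside the annotated gene, and in replicate 2 it crossed the start. The span of the lncRNA LOC101928487, on the minus strand in the RefSeq promoter table, also covers this place. It holds the whole replicate 1 peak and part of the replicate 2 peak, and the libraries were made with a stranded kit. ARPC4 (gene ID 10093), the other part of the dimer, had no peak in either table.

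Gene-start peaks were also listed for ACTR2 and ARPC1A with first blocks that cross the annotated start, and for ACTR3 from 30 nt past it. The promoter sequences of RefSeq (GRCh38.p14) held 8 of the 9 subunits, run from 250 nt before to 50 nt after a start, and list more than 1 start for some genes. They held the ARPC2 peak whole and the first part of the ACTR2 and ARPC1A peaks at the annotated gene start. The ACTR3 peak was held whole by the entry of another, later ACTR3 start, at chr2:113890089, and lies upstream of that start. Matches to the letters GANGAN, a GA-rich motif described for internal m7G sites in mRNA, are in capitals, and all other bases are in lower case. The first is the ARPC2 gene-start peak of both replicates joined, chr2:218217094-218217212, plus strand. The ACTR2 line is the start of its first block up to 30 bases into the annotated gene, chr2:65227725-65227860, plus strand. The ARPC1A line is cut in the same way, chr7:99325873-99325927, plus strand. The ACTR3 line is the first stretch of 30 bases of its peak with the most matches, chr2:113890020-113890049, plus strand.
ARPC2: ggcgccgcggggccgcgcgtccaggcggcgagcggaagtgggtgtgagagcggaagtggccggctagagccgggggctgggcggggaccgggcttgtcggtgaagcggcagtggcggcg
ACTR2: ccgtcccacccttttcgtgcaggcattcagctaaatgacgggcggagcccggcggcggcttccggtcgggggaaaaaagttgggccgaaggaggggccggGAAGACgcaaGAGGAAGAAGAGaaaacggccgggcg
ARPC1A: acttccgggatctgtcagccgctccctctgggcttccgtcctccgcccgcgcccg
ACTR3: tGAGGAGGAGgGAAGAGagaggggGAGGAG

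Guanine made up 53.8% of the ARPC2 sequence and 56.0% of the whole 91 nt of the ACTR3 peak, but 39.7% of the ACTR2 sequence and 25.5% of the ARPC1A sequence. Windows at the same place relative to the start of the entry used (for ACTR3 the later start, so that its windows lie upstream of a start) in all 35116 promoter entries averaged at most 30.8% guanine. On the plus strand GANGAN was found 5 times, overlaps counted, in the whole ACTR3 peak and 4 times in the ACTR2 sequence. The shares of promoter windows with at least 1 match were 27.8% for the ACTR3 length and 39.6% for the ACTR2 length. How many matches each window held was not compared, and the windows were not matched for base composition. Neither strand of the ARPC2 sequence held a match (35.0% of windows of that length had one on the gene's strand), and ARPC1A had 1, on the opposite strand only (18.1% of windows). On the opposite strand of the ACTR2 sequence and the ACTR3 peak there was none. A match of letters is a description and no modified site, and its absence says only that these letters are not in this window.

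ACTR2 and ACTR3 encode Arp2 and Arp3, the actin-related proteins that act as the first pair of subunits of the new filament. ACTR2 (gene ID 10097, chr2:65227831-65271253) had 2 shared peaks. At the gene start its fold was 4.35 in replicate 1 and 6.92 in replicate 2 (mean log2 fold 2.46 ± 0.47, SD, n = 2), and the log10 p was -14.9 and -16.7. Replicate 2 was higher by 0.67 on the log2 scale, a gap exceeded by 19.2% of shared peaks. The first base, chr2:65227725, and the first block of 233 nt were identical in both replicates, and the block began 106 nt before the annotated start. Beyond a gap of 11894 nt, the second block had 36 nt in replicate 1 and 6 nt in replicate 2, from the same first base.

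Toward the other end of ACTR2 the fold was 2.71 and 3.19 (mean log2 fold 1.56 ± 0.17, SD, n = 2). That peak covered chr2:65269199-65269318 in replicate 1 and chr2:65269169-65269348 in replicate 2, and its midpoint lay 1994 nt before the annotated gene end in both. Its log10 p was -4.68 and -9.78. ACTR2 and ARPC2 were thus the 2 subunits with more than 1 shared peak, and 19.6% of genes with a shared peak had more than 1. Both had 1 at the gene start, but the other ACTR2 peak lay outside the 1000 nt counted here as near the gene end.

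ACTR3 (gene ID 10096, chr2:113889934-113962596) had the highest fold of any subunit peak, 50 in replicate 2, and no peak in replicate 1. A higher fold was held by 0.597% of replicate 2 peaks, but 37.8% of them had a smaller p-value (log10 p -7.30). Exactly this fold was also held by 13 other replicate 2 peaks, and the counts behind it are unknown. The peak was 91 nt long, chr2:113889964-113890054, and its midpoint lay 75 nt past the annotated gene start. Of the 200 replicate 2 peaks nearest to it in p-value, 65.5% were shared. The span of ACTR3-AS1, on the minus strand in the promoter table, also covers the peak. The gene table lists 3 ACTR3 pseudogenes and the gene ACTR3B, which had no peak, and it is not stated how reads that match several copies were counted.

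ARPC1A and ARPC1B encode alternative forms of the WD40 subunit, which contacts the activators of the complex. ARPC1B (gene ID 10095, chr7:99374259-99394816) had a shared peak near the gene end with folds of 2.86 and 3.07 (mean log2 fold 1.57 ± 0.07, SD, n = 2). The replicates differed by 0.10 on the log2 scale, less than 80.5% of shared peaks did. After ARPC2 it was the most significant of the subunit peaks, with log10 p of -20.2 and -28.8. Its 2 blocks were parted by the same gap of 331 nt in both replicates, and it ran from chr7:99394067 to 99394575 in replicate 1 and from chr7:99394097 to 99394663 in replicate 2. Its midpoint lay 329 and 270 nt before the annotated end, and in replicate 2 its last base lay 10 nt from the span of PDAP1, a gene on the minus strand.

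ARPC1A (gene ID 10552, chr7:99325898-99366262) had a single peak, in replicate 2, at the opposite end of its gene. The fold was 2.47 and the log10 p -6.42. Its first block of 132 nt began 25 nt before the annotated start, and 18 nt followed beyond a gap of 7320 nt. Of the 200 replicate 2 peaks nearest in p-value, 66% were shared. The gene table lists 4 ARPC1A pseudogenes and 1 of ARPC1B.

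ARPC5 and ARPC5L encode alternative forms of the smallest regulatory subunit. The shared peak of ARPC5 (gene ID 10092, chr1:183620846-183635783, minus strand) was the weakest of the subunits, 1.67 in replicate 1 and 1.72 in replicate 2 (mean log2 fold 0.76 ± 0.03, SD, n = 2). The replicates were nearly equal, and 91.4% of shared peaks differed by more. It covered chr1:183635584-183635703 and chr1:183635524-183635673, with midpoints 139 and 184 nt inside the annotated start, and had log10 p of -5.30 and -7.72. ARPC5L (gene ID 81873, chr9:124862130-124877733) had a peak in replicate 1 alone, with a fold of 9.25 and a log10 p of -6.33. This peak was 1 block of 301 nt, chr9:124869136-124869436, 7156 nt from the annotated start and at 45.9% of the span. Of the 200 replicate 1 peaks nearest in p-value, 72.5% were shared. In both isoform pairs 1 gene had a shared peak and the other a peak in a single replicate.

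ARPC3 (gene ID 10094), whose product contacts Arp3, had no peak in either table, and the gene table lists 5 pseudogenes of it. ARPC3, ARPC4, ARPC5 and ARPC5L were the shortest of these genes, spanning 14584 to 15604 nt, against 20558 nt or more for the others.

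**Figure D3:**
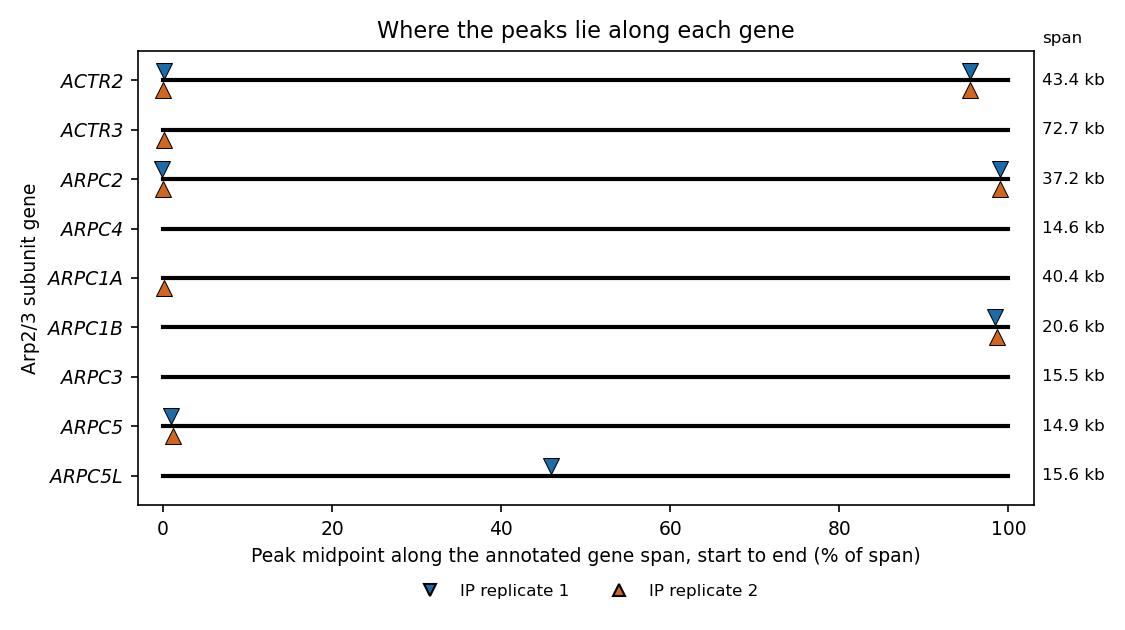
Midpoint of each peak along the annotated span of its Arp2/3 subunit gene, from start (0%) to end (100%), with blue triangles for IP replicate 1 above the line, orange triangles for IP replicate 2 below it and the length of the span at the right. Apart from the ARPC5L peak at 45.9% of the span, the peaks lie toward one end of the gene or the other.

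By position, the strongest shared peak lay within 200 nt of the annotated gene start on ACTR2 and ARPC5 and within 1000 nt of the gene end on ARPC2 and ARPC1B. Over the 2099 genes with a mutually best shared peak, 26.9% had their strongest within that distance of the start and 13.5% within that distance of the end. The counts of 2 and 2 among 4 genes are too small to be set against these shares. Distances are genomic, and exons and transcript regions were not used here.

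By strength, the strongest shared peaks of the 4 subunits had a median fold of 4.23 (geometric mean of both replicates) and ranged from 1.70 on ARPC5 to 18.5 on ARPC2. The median over the 2099 genes was 4.59, with an interquartile range of 2.76 to 7.71. ARPC2 lay above the upper quartile, ACTR2 between it and the median, ARPC1B between the median and the lower quartile and ARPC5 below that. The median difference between replicates over the 6 shared subunit peaks was 0.07 on the log2 scale, against a median of -0.07 and an SD of 0.60 over all shared peaks. The ARPC2 gene-start peak was the only 1 of the 6 to lie outside the range that held 95% of them. All 3 shared subunit peaks with several blocks had identical gap edges in both replicates, as did at least 1 gap in 806 of 819 such peaks (98.4%).

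The genes nearest to ARPC2 in fold, by distance on the plane of log2 folds in both replicates (2 samples), were SEMA7A (21.5 and 16.5, distance 0.04), STMN3 (21.6 and 16.2, 0.05) and BMI1 (20.4 and 15.9, 0.06). Their log10 p ranged from -6.10 to -83.3, so they matched ARPC2 in fold and not in significance. Nearest to the ACTR2 gene-start peak were ISOC2 (4.41 and 6.77, 0.04), B4GALNT4 (4.52 and 6.98, 0.06) and TRAF3IP1 (4.53 and 6.76, 0.07).

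Genes linked to the complex, together called regulators here, were described from a list of 46. The list held activators, the WAVE and WASH complexes, WASP partners, GTPases, inhibitors, filament capping proteins and subunit paralogs. A shared peak was present on 10 of the 46 (21.7%), against the 10.5% of all protein-coding genes, and 14 (30.4%) had a peak in either replicate, against 21.6%. Of those 14, 10 (71.4%) had a shared peak, against 48.6% of all genes with a peak in either. When only the more significant 50% of peaks was used, 4 of 46 (8.70%) had a shared peak, close to the 6.32% of all protein-coding genes. The median fold at the strongest shared peak was 4.80 (geometric mean of both replicates), ranging from 2.11 to 36.7.

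The WAVE complex relays Rac signals to Arp2/3, and 2 of its 8 listed genes had a shared peak. The highest fold of the list was on 1 of them, NCKAP1, which encodes its NAP1 scaffold subunit, with 55.5 in replicate 1 and 24.3 in replicate 2. It was higher than ARPC2 in both, with a difference of -1.19 on the log2 scale (replicate 2 minus replicate 1). The log10 p of -55.5 and -32.6 was far from that of ARPC2. The peak covered chr2:183038080-183038499 in replicate 1 and chr2:183038140-183038469 in replicate 2, minus strand, and on average its midpoint was 160 nt inside the annotated start. ABI2, the Abl interactor of that complex, had 2.56 and 6.67, a difference of 1.38. Of the GTPases, RAC1, which switches on WAVE, had 12.3 and 2.69, a difference of -2.19 and the widest of the list, and CDC42, which switches on N-WASP, also had a shared peak.

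Among the inhibitors, ARPIN, which competes with the activators for the complex, had 3.62 and 4.07, and the span of ARPIN-AP3S2 also covers that peak. PICK1, a BAR-domain protein reported to inhibit Arp2/3, had 9.25 and 5.45. The coronin CORO2A had a peak in both tables at different places, and the other coronins and the debranching factors GMFB and GMFG had none. CAPZB, the beta subunit of capping protein, had 5.56 and 7.01 with the same edges in both replicates, while CAPZA1 had a peak in replicate 2 only. WIPF1, the WASP-interacting protein, had 5.09 and 5.86, and the span of WIPF1-AS1 covers that peak too. Its relative WIPF2 had peaks in both tables that did not overlap.

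Of 11 activators, WASHC1 and CTTN, which encodes cortactin, had a shared peak and WASF1 a peak in replicate 2 only. WASHC1 (3.94 and 2.52) has near-identical copies, so its value is uncertain. WAS, HCLS1, NCKAP1L, CORO1A and GMFG, whose products are found mainly in blood cells, had no peak in either table, nor did ACTR3B and ACTR3C. None of the 5 other WASH complex genes had a peak.

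**Figure D4:**
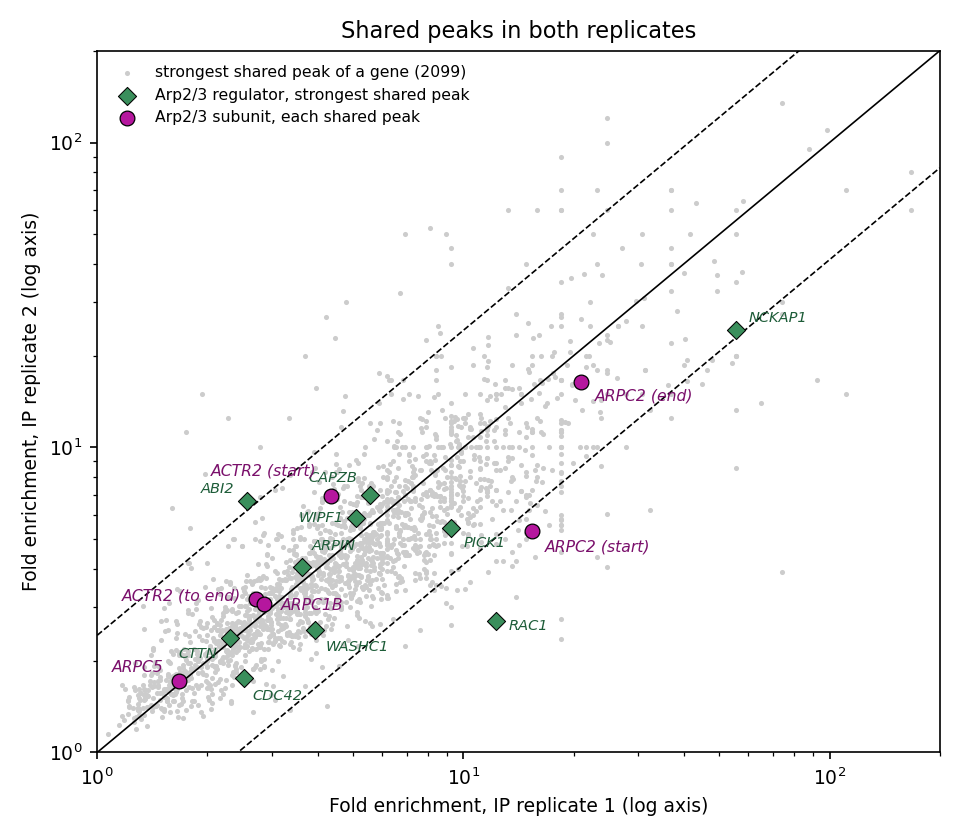
Fold enrichment in IP replicate 1 against IP replicate 2 (log axes) for the strongest shared peak of each of 2099 genes in grey, the 10 Arp2/3 regulators with a shared peak as green diamonds and the 6 shared peaks on Arp2/3 subunits in purple. The solid line marks equal folds and the dashed lines a log2 difference of 1.28, which 95% of all shared peaks stay within; the ARPC2 gene-start peak, RAC1 and ABI2 lie outside.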

How the data were processed

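The 2 input and 2 m7G IP libraries of U2OS cells were grouped by their titles. The submitters' processing notes name STAR and GRCh38; the peak caller with its settings, and the scaling of the fold, were not given in the sources used here. Per the file headers, each deposited table of 1 IP replicate holds a p-value for every peak. It also holds, per the file headers, log10 values of the p-value and the false discovery rate, kept as a score, and a linear fold (ratio of IP to input). No counts were given, so the depth and the error of a single fold are unknown.

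Peaks of the subunits were taken by the name column. Blocks were compared on the same strand, an overlap of at least 1 bp counted as shared, and mutually best overlaps made pairs, in which a gene's strongest peak is the one with the highest lower fold. A gene whose overlap was not mutually best has no pair, so 2099 of 2108 genes with a shared peak have one. Other names were matched to the RefSeq gene table (GRCh38.p14) by symbol or synonym within 2000 nt, and coordinates are 1-based. Distances are measured at the middle of the joined blocks.

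With 1 condition, no test between groups was possible and none was run. The members, lists and settings were chosen with earlier results of these data known. Named genes are all subunits, regulators with a peak (values for the 8 with the highest lower fold), the 3 genes nearest in fold to each subunit with at least 4-fold in both replicates, and genes whose span covers a member's peak; PTMS and HNRNPU were chosen after their values were seen. The overlap search was run on simulated data (2584 of 4281 peaks truly shared, 2584 found). Shared peaks there were exact copies, and all others were moved far away. Peaks overlapping another peak of their table were left out, so the run did not test partial or ambiguous overlaps. Python 3.11.15 with numpy 2.4.6, pandas 2.3.3 and matplotlib 3.10.9 was used.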

Additional observations from a re-analysis of the deposited data

How the results depend on the processing

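The count of 4 subunits with a shared peak was 4 with 50% reciprocal overlap and with any peak of the gene in both tables. It was 3 in the more significant 50% of each table and with at least 2-fold in both, and 5 to 6 when either replicate was left out and all peaks of the other were taken. Of 32 alternative values, 28 stayed within 1.5 times of a count or 1 SD between replicates. This margin is wide for small counts, as 3 and 6 subunits against 4 both fell inside it. The exceptions were the regulators with a shared peak in the more significant 50% of each table (4 against 10) and all protein-coding genes with a shared peak, which were 1268 under that setting and 3194 to 3480 with 1 replicate left out, against 2108. Those follow from fewer peaks and from dropping the second replicate. No paired analysis was possible because the tables hold 1 condition and the input libraries enter only through the authors' peak calls. Depth is unknown, so a missing peak on ARPC3 or ARPC4 cannot be told from low expression.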

Other observations

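Folds on the subunits, of single-replicate and of shared peaks, were often values that other peaks hold too. The ARPC5L fold of 9.25 was held by 67 other replicate 1 peaks, 43 of them shared with replicate 2, and among them were peaks of the inhibitors ARPIN and PICK1. The ACTR3 fold of 50 was held by 13 other replicate 2 peaks, 6 of them shared with replicate 1. The folds of the ARPC2 gene-start peak were held by 19 other peaks in replicate 1 and 17 in replicate 2, that of the ACTR2 gene-start peak by 13 in replicate 2 and that of ARPC5 by 17 in replicate 2. The fold of the ARPC2 gene-end peak was held by 1 other peak in replicate 1 and by 0 in replicate 2. Of the regulators, the replicate 1 folds of NCKAP1 (55.5) and RAC1 (12.3) were also held by other peaks. What sets these repeated values was not tested.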
